A study of Mus musculus with 30 samples.

Results

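The genes described here are Rhox5, Trap1a, Usp26, Dazl, Mael, Sycp3, Tex19.1 and Dppa3, 8 genes known from the germline or the reproductive tract, out of 14685 genes in an expression table of mouse embryonic stem cells (ESC) differentiating to blood. They were taken by their symbols, and all 8 exceeded 1 FPKM (RNA-seq fragments scaled to transcript length and library size) in at least 1 sample. Rhox5, Trap1a and Usp26 were picked because their values were higher in cells with a truncated Sp1, so for these 3 genes that comparison is a description and carries no test. The other 5 genes were not picked by a measured value, although they were named with results of these data known.

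RNA was sequenced from 30 samples in 15 groups, each a population and a genotype with 2 replicates. The E14 mouse ESC line was compared as wild type (WT), as Sp1_deltaDBD, here Sp1 ΔDBD/ΔDBD, in which both Sp1 alleles lack the DNA-binding domain, and as Sp3KO, here Sp3 -/-. Each mutant was an established E14 line, so genotype cannot be told apart from other differences between lines. The populations were ESC, Flk1+ cells purified with magnetic beads from embryoid bodies harvested at times that depended on the line, and 3 populations sorted from blast culture: KIT+ CD41- Tie2+ cells (HE1, hemogenic endothelium), KIT+ CD41+ Tie2+ cells (HE2) and KIT+ CD41+ Tie2- progenitors. The study's methods call the 2 replicates biological but do not say whether they were separate cultures, so p-values measure the spread between these samples.

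Germline genes are held silent in most somatic cells by DNA methylation of their promoters and by repressor complexes such as the one containing E2F6, MGA and PCGF6, and ESC express a number of them. Sp1 and Sp3 are ubiquitous zinc-finger factors that bind GC boxes, short GC-rich elements found in many promoters of CpG islands. Among the genes described, Rhox5 encodes an X-linked homeobox protein of the testis and placenta, Trap1a (also called P1A) an X-linked tumor-rejection antigen expressed in testis and placenta, and Usp26 an X-linked deubiquitinase of the testis. Dazl is an RNA-binding regulator of germ cell translation, Mael acts in piRNA-guided silencing of transposons, Sycp3 is a component of the lateral element of the meiotic synaptonemal complex, Tex19.1 is needed for spermatogenesis and restrains retrotransposons, and Dppa3 (Stella) is a maternal factor that protects DNA methylation in the early embryo.

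In the GRCm38 annotation Rhox5 lies at X:37804842-37808876 on the plus strand, Trap1a at X:139333683-139338169 on the plus strand and Usp26 at X:51753959-51801233 on the minus strand. The other 5 genes are autosomal. Dazl is at 17:50279395-50293636 and Mael at 1:166201201-166238747, both on the minus strand, while Sycp3 at 10:88459569-88473236, Tex19.1 at 11:121146143-121148319 and Dppa3 at 6:122626410-122630272 are on the plus strand. Trap1a is overlapped on the other strand by Platr21, and Sycp3 by Chpt1, and since alignment and counting were run with default parameters, which set no library strand, unspliced reads of such a pair may not have been told apart. Platr21 was listed at 10.7 FPKM in both WT ESC samples and at 0.35 FPKM or less in every later sample of all genotypes. Its mean in Sp1 ΔDBD/ΔDBD progenitors was 0.302 FPKM against 0.0333 in WT, a difference that passed the test described below. The means of 0.231 against 0.0856 FPKM in HE1 and 0.262 against 0.0915 in HE2 did not differ by that test. The part of Platr21 in the Trap1a values was not tested. Dppa3 has near-identical copies, Dppa3-ps and Gm15620, neither of which is in the table, so reads from them could have been assigned to Dppa3.

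The sequences below are the 250 bases before the RefSeq start (GRCm38.p6) of the 6 genes whose start was within 18 bases of the gene annotation used for the positions. They are shown because Sp1 and Sp3 bind GC boxes, and E2F6 and its partners in the repressor complex bind E2F and E-box elements. Each reads 5′ to 3′ toward the start, and capitals mark GGGCGG (a GC box core), CACGTG (an E-box) or GCGGGA (an E2F core) on either strand. The windows are X:139333433-139333682 for Trap1a, X:51801234-51801483 for Usp26, 17:50293621-50293870 for Dazl, 1:166238745-166238994 for Mael, 10:88459337-88459586 for Sycp3 and 11:121145893-121146142 for Tex19.1, on the strand of each gene.
Trap1a: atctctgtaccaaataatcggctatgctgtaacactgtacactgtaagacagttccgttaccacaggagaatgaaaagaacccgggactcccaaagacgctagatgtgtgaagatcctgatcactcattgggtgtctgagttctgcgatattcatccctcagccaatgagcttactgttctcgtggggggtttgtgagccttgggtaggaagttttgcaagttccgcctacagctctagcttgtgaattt
Usp26: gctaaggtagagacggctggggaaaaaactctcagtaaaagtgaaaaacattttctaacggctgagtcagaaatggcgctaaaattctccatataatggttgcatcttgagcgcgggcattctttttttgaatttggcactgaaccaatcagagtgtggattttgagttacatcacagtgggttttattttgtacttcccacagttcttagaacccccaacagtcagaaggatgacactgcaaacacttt
Dazl: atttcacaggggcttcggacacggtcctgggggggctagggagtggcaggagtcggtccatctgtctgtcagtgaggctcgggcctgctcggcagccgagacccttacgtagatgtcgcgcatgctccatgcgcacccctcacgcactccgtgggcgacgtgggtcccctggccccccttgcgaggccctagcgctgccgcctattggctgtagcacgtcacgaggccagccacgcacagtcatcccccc
Mael: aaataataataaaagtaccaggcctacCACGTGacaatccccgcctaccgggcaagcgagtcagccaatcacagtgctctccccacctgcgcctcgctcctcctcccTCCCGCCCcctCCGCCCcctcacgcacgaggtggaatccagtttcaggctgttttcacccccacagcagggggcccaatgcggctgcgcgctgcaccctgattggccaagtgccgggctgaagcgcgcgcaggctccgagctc
Sycp3: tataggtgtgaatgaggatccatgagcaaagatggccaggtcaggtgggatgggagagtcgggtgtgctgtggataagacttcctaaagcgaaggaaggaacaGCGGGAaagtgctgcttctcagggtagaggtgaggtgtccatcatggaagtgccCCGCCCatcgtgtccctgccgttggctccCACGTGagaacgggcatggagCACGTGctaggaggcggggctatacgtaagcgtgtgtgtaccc
Tex19.1: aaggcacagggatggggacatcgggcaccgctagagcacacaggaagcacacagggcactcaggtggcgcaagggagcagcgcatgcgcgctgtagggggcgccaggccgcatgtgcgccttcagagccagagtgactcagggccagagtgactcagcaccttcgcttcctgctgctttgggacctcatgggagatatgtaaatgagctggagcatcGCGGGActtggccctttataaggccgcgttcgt

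Neither Trap1a nor Usp26 held any of the 3 motifs in this window, and neither did Dazl. Mael held 2 GC boxes, 1 E-box and 1 E2F core, Sycp3 held 1, 2 and 1, and Tex19.1 held 1 E2F core alone. Of 32851 windows of the same length before RefSeq starts, 32.7% held a GC box, 6.02% the E-box and 16.9% the E2F core. The windows of the autosomal genes were richer in CpG dinucleotides, with 20 in Dazl, 18 in Mael, 15 in Tex19.1 and 12 in Sycp3, against 7 in Trap1a and 5 in Usp26 and a median of 6 over all windows. A match is a description of letters and not a binding site, and the absence of a match says only that these letters are not in this window. For Rhox5 the RefSeq start lay 50234 bases from the annotated start, and no sequence is shown for it.

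All values below are quantile-normalized FPKM. Differences are on a log2(FPKM + 0.1) scale with their standard error (SE) and were tested by limma over 14525 genes with Benjamini-Hochberg adjustment, a call being an adjusted p under 0.05. The pseudocount makes the log2 difference of a low gene smaller than the ratio of its FPKM values. The lowest value of a library ran from 0 to 0.0234 FPKM, and a gene described as being at the library minimum had that value. The number of reads per sample is unknown, so no counting error can be given. With 2 samples in each group the smallest p of an exact permutation test is 0.333, which is why a fit over all genes was used. Of the markers read, Pou5f1 was between 410 and 501 FPKM in ESC and Kdr between 165 and 257 in Flk1+ cells. Cdh5 was between 369 and 591 in HE1, Itga2b between 84.6 and 147 in HE2 and Gata1 between 40.1 and 69.9 in progenitors. Not every marker was confined to its label. Kdr was between 208 and 358 FPKM in HE1. Itga2b, the CD41 gene, was between 34.8 and 83.3 in HE1, which was sorted as CD41-, and between 59.1 and 136 in progenitors. Sp3 RNA was lower in Sp3 -/- cells by 2.40 to 3.32 on the log2 scale. Sp1 RNA in Sp1 ΔDBD/ΔDBD cells differed from WT by -0.10 to -0.76 (log2), a check of limited use because only a part of the gene is removed.

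Rhox5 reached the highest FPKM of the 8 genes, in ESC of the Sp1 mutant. WT ESC held 69.7 and 36.9 FPKM, Sp1 ΔDBD/ΔDBD ESC 325 and 331 FPKM and Sp3 -/- ESC 116 and 103 FPKM, with no overlap between genotypes. In WT it was far lower in each later population, at 0.851 and 0.643 FPKM in Flk1+ cells, 3.06 and 4.57 in HE1, 3.90 and 3.52 in HE2, with 1.38 and 1.83 in progenitors. In Sp1 ΔDBD/ΔDBD cells the later values were 32.8 and 22.4, then 73.7 and 64.2, 68.6 and 52.8, and 58.2 and 46.1 FPKM in the same order. The HE1 and HE2 cells of this mutant thus held as much Rhox5 RNA as WT ESC, whose range of 36.9 to 69.7 FPKM overlapped theirs. The ratio of the group means to WT was 6.15 in ESC, 37.0 in Flk1+ cells, 18.1 in HE1, 16.3 in HE2 and 32.5 in progenitors.

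Usp26 was also highest in the Sp1 mutant, at a lower level than Rhox5. WT ESC held 13.8 and 11.6 FPKM and Sp1 ΔDBD/ΔDBD ESC 38.8 and 47.7 FPKM. Later WT samples ranged from 0.0855 to 1.11 FPKM. The later Sp1 ΔDBD/ΔDBD samples were at 5.40 and 4.17 FPKM in Flk1+ cells, 6.86 and 6.44 in HE1, 12.4 and 14.3 in HE2, with 23.5 and 16.3 in progenitors, with every value above all later WT values. The mean in Sp1 ΔDBD/ΔDBD progenitors, 19.9 ± 5.15 FPKM (SD, n = 2), was the highest after that of ESC of the same line. In the ordering of the 15 groups it was followed by HE2 of the same line and WT ESC, whose ranges overlapped.

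Trap1a differed from the other 2 X-linked genes in ESC, where the genotypes were close: 56.0 and 58.0 FPKM in WT, 61.6 and 58.9 in the Sp1 mutant and 49.998 and 48.7 in the Sp3 -/- line. In later WT populations it was between 0 and 1.03 FPKM. The Sp1 ΔDBD/ΔDBD values were 3.91 and 1.88 FPKM in Flk1+ cells, 33.7 and 8.40 in HE1, 42.4 and 11.01 in HE2, with 38.3 and 12.1 in progenitors. Replicate 1 was the higher sample in all 3 populations from blast culture, so the mean of 25.2 FPKM in progenitors has an SD of 18.6 (n = 2). The sum of fibroblast markers, of which 6 of 8 were in the table, was also higher in those replicate 1 samples. It was 130 against 16.0 FPKM in HE1, 47.0 against 4.96 in HE2 and 13.95 against 3.67 in progenitors. Not every marker followed. In HE1 Postn was at 85.3 against 4.10 FPKM, whereas Fbln1 was at 2.67 in both replicates, and in HE2 Thy1 was at 0.0853 against 0.177. The same sums in WT were 292 against 45.4, 51.6 against 11.6 and 56.7 against 16.8 FPKM, in samples with little Trap1a, and their part in the Trap1a spread was not tested. Runx1, a marker of HE2, was lower in replicate 1 of the Sp1 mutant, at 9.94 against 40.1 FPKM in HE2 and 12.7 against 67.5 in progenitors. It was close in HE1 (3.99 and 4.24), as was Gata1 in progenitors (68.1 and 62.6). The part of stage in the Trap1a spread was not tested either. For Trap1a, both replicates of the Sp1 mutant were above every later WT sample. No fold is given for Flk1+ cells and HE1, where a WT sample was at the library minimum. The log2 difference was 0.08 in ESC, 5.11 in HE2 and 5.73 in progenitors (SE 0.910).

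**Figure D1:**
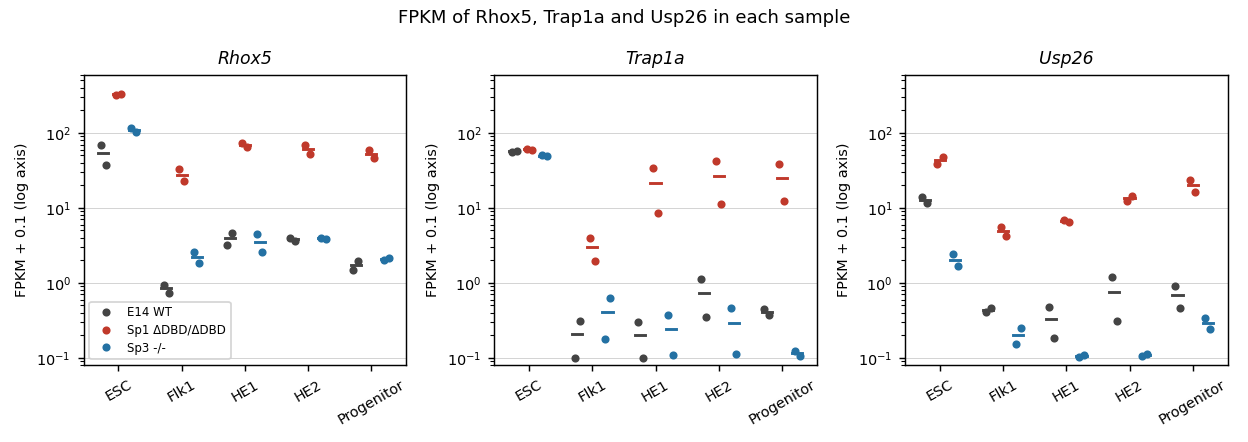
Levels of Rhox5, Trap1a and Usp26, the genes picked for their Sp1 ΔDBD/ΔDBD values, in the 5 populations, as FPKM + 0.1 on a log axis. Points are the 2 samples of a group, bars their mean, and colors the genotypes (WT grey, Sp1 ΔDBD/ΔDBD red, Sp3 -/- blue). The Sp1 ΔDBD/ΔDBD samples lie above the WT samples in every population, with Trap1a in ESC as the place where the genotypes are close.

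Set against ESC of the same genotype, the 3 genes kept different shares of their level. In WT, Rhox5 held between 1.40% and 7.16% of its ESC mean in the later populations, Trap1a between 0.179% and 1.12%, and Usp26 between 1.79% and 5.19%. In Sp1 ΔDBD/ΔDBD cells the shares for Rhox5 were 8.42% for Flk1+ cells, 21.02% for HE1, 18.5% for HE2 and 15.9% for progenitors. Trap1a went from 4.80% in Flk1+ cells to 34.9%, 44.3% and 41.8%, and Usp26 from 11.1% to 15.4%, 30.9% and 46.0%. All 3 genes were thus also lower than in ESC in the mutant, with their smallest share in Flk1+ cells, and Usp26 alone had its largest share in progenitors. These shares are bulk values, in which fewer expressing cells and less RNA per cell cannot be told apart.

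**Figure D2:**
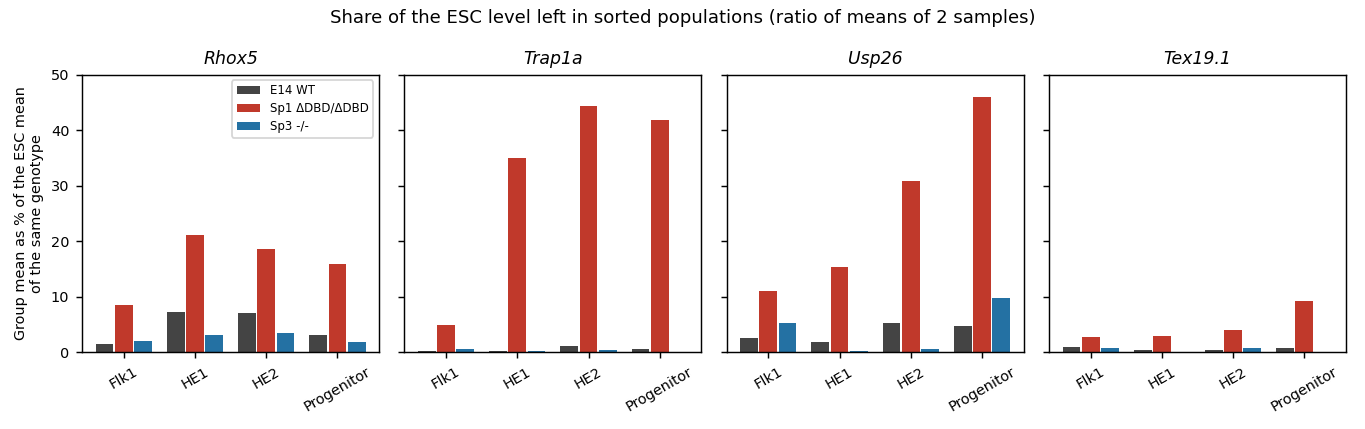
Group mean of Rhox5, Trap1a, Usp26 and Tex19.1 in each later population as a percentage of the ESC mean of the same genotype, on an axis from 0. Bars are means of 2 samples. In Sp1 ΔDBD/ΔDBD cells Trap1a and Usp26 reach 44.3% and 46.0% at most, Rhox5 21.02% and Tex19.1 9.16%, while WT bars stay at or below 7.16%.

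Because ESC express all 8 genes, the RNA of 5 pluripotency factors (Pou5f1, Nanog, Sox2, Zfp42 and Esrrb) was set beside these levels. In HE1, HE2 and progenitors of the Sp1 ΔDBD/ΔDBD line none of the 5 exceeded 0.921 FPKM, and none exceeded 0.192%, 0.216% and 0.140% of its own ESC mean in the 3 populations. The shares of Rhox5, Trap1a and Usp26 in the same populations were between 15.4% and 46.0%. In WT the highest of the 5 factors reached 0.182 FPKM in HE1, 0.225 in HE2 and 0.329 in progenitors. Zfp42 was above both WT samples in all 3 populations of the Sp1 mutant, at 0.371 and 0.310 FPKM against 0.182 and 0 in HE1. In HE1 Pou5f1 was below both WT samples, and Nanog, Sox2 and Esrrb overlapped with WT. Dppa2 and Dppa4, described below, were called higher in HE1 of this line. Flk1+ cells still hold ESC genes. The largest share of the 5 factors there in a single sample was 8.92% for WT, 9.23% for the Sp1 mutant and 18.8% for Sp3 -/-. In the Sp1 mutant it came from Pou5f1 in replicate 1, at 39.7 FPKM against 14.4 in replicate 2. The shares of Rhox5 and Trap1a there, 8.42% and 4.80%, are of 2-sample means and cannot be ranked against that of a single sample.

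The comparison of Sp3 -/- with WT asks whether loss of the related factor went with the same genes. It shares the WT samples with the Sp1 comparison for which Rhox5, Trap1a and Usp26 were picked, so low WT values would favor a higher difference in both, and for these 3 genes a higher call is not independent of the choice. Of 40 tests over 8 genes and 5 populations, 5 passed, 2 higher and 3 lower, where 11.5% of all tests over the table passed (5.8% higher and 5.67% lower). Both higher calls belonged to Rhox5, and the lower calls to Usp26 and Tex19.1. Among the genes not picked by a value, Tex19.1 alone was called, in progenitors. The count mixes picked and other genes, so its nearness to the share of all genes is a description.

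Rhox5 was higher in Sp3 -/- ESC, by 1.11 (log2, SE 0.290, adjusted p 0.0184), at 116 and 103 FPKM against WT values of 69.7 and 36.9. It was also higher in Flk1+ cells, by 1.39 (adjusted p 0.00441), at 2.50 and 1.76 FPKM against 0.851 and 0.643 FPKM. The WT samples here also entered the choice of Rhox5, so these calls are a description and not support for a rise. In the populations from blast culture the Sp3 -/- values of 4.32 and 2.50 FPKM in HE1, 3.91 and 3.71 in HE2, with 1.94 and 2.02 in progenitors overlapped or adjoined those of WT, with log2 differences of -0.18, 0.04 and 0.30 and adjusted p of 0.767, 0.952 and 0.602. The ESC call was lost without WT ESC replicate 2 (0.65, adjusted p 0.239) and without either Sp3 -/- ESC sample (adjusted p 0.133 and 0.0750), and the Flk1+ call without WT Flk1+ replicate 2 (1.21, adjusted p 0.0776) or Sp3 -/- Flk1+ replicate 1 (1.15, adjusted p 0.0853).

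Usp26 went the other way in Sp3 -/- ESC, where it was at 2.31 and 1.58 FPKM against 13.8 and 11.6 FPKM in WT. The difference of -2.66 (log2, SE 0.498, adjusted p 0.00214) passed under every alternative tried, with adjusted p between 4.19e-06 and 0.0378. In HE2 both Sp3 -/- samples were at the library minimum, against 1.11 and 0.209 FPKM in WT (-2.47, adjusted p 0.00356). That call did not hold without WT HE2 replicate 1 (-1.48, adjusted p 0.0897). The differences in Flk1+ cells, HE1 and progenitors were -1.15, -1.49 and -1.20, with adjusted p of 0.143, 0.0617 and 0.151.

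Trap1a was not called in Sp3 -/- cells in any population. Its ESC difference was -0.21 (adjusted p 0.950), and in progenitors both Sp3 -/- samples were at the library minimum against 0.345 and 0.273 FPKM in WT (-1.83, adjusted p 0.233). In Sp3 -/- ESC the values of Rhox5 were thus higher than in WT, those of Usp26 were lower and Trap1a was not called. The higher Rhox5 call is not independent of the choice of that gene.

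The 5 genes that were not picked by a value were tested in the Sp1 comparison. They were still named with results of these data known, which the p-values do not take into account. Over 25 tests, 6 passed, 5 higher and 1 lower, beside 8.02% of all tests (3.97% higher and 4.05% lower). Of the 6 calls, 3 belonged to Tex19.1, 2 to Dazl and 1 to Sycp3, while Mael and Dppa3 had none.

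**Figure D3:**
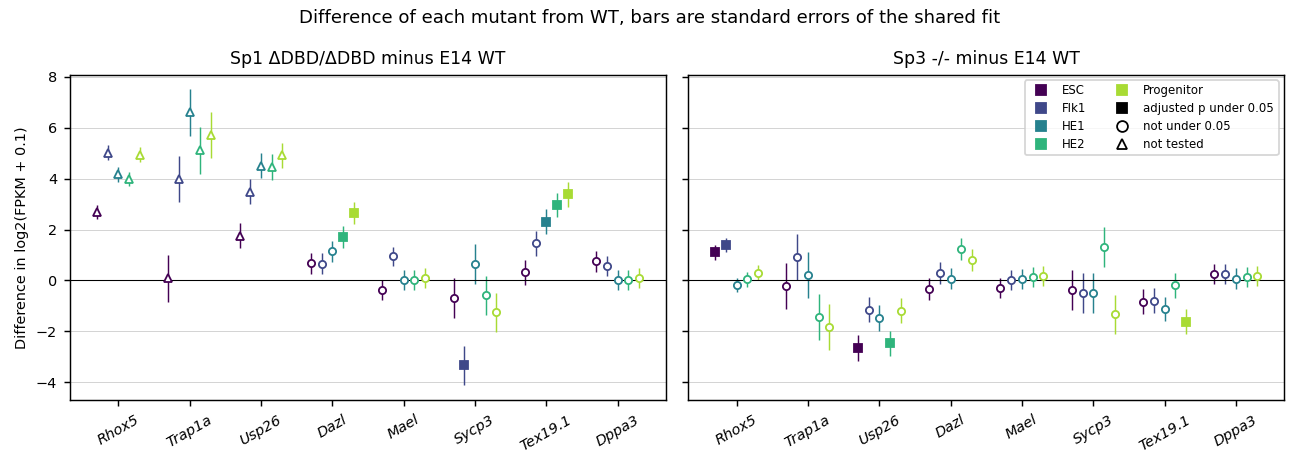
Difference of each mutant from WT on the log2(FPKM + 0.1) scale for the 8 genes in the 5 populations, with the SE as error bars. Filled squares passed at an adjusted p under 0.05, open circles did not, and triangles mark the picked genes in Sp1 ΔDBD/ΔDBD cells, which were not tested. Tex19.1 lies from 2.30 to 3.39 in HE1, HE2 and progenitors of Sp1 ΔDBD/ΔDBD, and Usp26 lies below 0 in Sp3 -/- cells.

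Tex19.1 was close between WT and Sp1 ΔDBD/ΔDBD in ESC, at 24.4 and 41.9 against 34.4 and 46.8 FPKM (0.33, adjusted p 0.818). In the later populations WT held 0.455 and 0.210 FPKM in Flk1+ cells, 0.170 and 0.0966 in HE1, 0.132 and 0.110 in HE2, with 0.271 and 0.236 in progenitors. The Sp1 ΔDBD/ΔDBD samples held 1.45 and 0.740, 1.65 and 0.637, 1.76 and 1.498, and 4.68 and 2.76 FPKM, so that all 8 later samples of this line were above both WT samples of their population. The log2 difference was 1.46 in Flk1+ cells (adjusted p 0.0909), 2.30 in HE1 (SE 0.487, adjusted p 0.00515), 2.97 in HE2 (adjusted p 0.000632) and 3.39 in progenitors (adjusted p 0.000233), where the means differed 14.7-fold. The HE1 call was lost without Sp1 ΔDBD/ΔDBD HE1 replicate 1 (1.68, adjusted p 0.0639). With each population fitted alone, the HE1 and HE2 calls did not pass (adjusted p 0.0857 and 0.0945), and the progenitor call did. The levels of Tex19.1 were low beside the median gene of the table, at 7.19 FPKM, and at most 9.16% of the ESC mean.

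The Sp1 ΔDBD/ΔDBD difference of Tex19.1 was larger in HE2 than in ESC by 2.64 (log2, SE 0.689, adjusted p 0.0459) and larger in progenitors than in ESC by 3.06 (adjusted p 0.0208). These were the 2 tests that passed of 20 on the 5 genes, beside 2.87% of all such tests. The HE2 contrast did not pass in 22 of 34 alternatives, among them a pseudocount of 1 (0.91, adjusted p 0.177). The progenitor contrast did not pass in 5 of 34, all of them with a sample left out. In HE1 the same contrast was 1.98 (adjusted p 0.117) and in Flk1+ cells 1.13 (adjusted p 0.509).

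Tex19.1 moved the opposite way in Sp3 -/- progenitors, where both samples were at the library minimum (-1.63, SE 0.487, adjusted p 0.0434), a call that was lost in 12 of 35 alternatives. In Sp3 -/- ESC it was at 18.1 and 17.5 FPKM, below both WT samples, with a difference of -0.84 that was not called (adjusted p 0.303).

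Dazl was at 2.46 and 2.78 FPKM in WT ESC, 4.54 and 3.91 in Sp1 ΔDBD/ΔDBD ESC and 2.09 and 1.99 in Sp3 -/- ESC. The ESC difference for the Sp1 mutant, 0.67, was not called (adjusted p 0.441). In HE2 it rose from 0.160 and 0.158 FPKM to 0.577 and 0.963 FPKM (1.71, SE 0.421, adjusted p 0.0141), and in progenitors from the library minimum in both WT samples to 0.630 and 0.446 FPKM (2.65, adjusted p 0.000586). All of these later values are under 1 FPKM. Neither call passed with each population fitted alone (adjusted p 0.155 in HE2 and 0.0672 in progenitors). The HE2 call was lost without either WT sample (adjusted p 0.0725 and 0.0589) and without Sp1 ΔDBD/ΔDBD replicate 2 (1.38, adjusted p 0.160), whereas no left-out sample removed the progenitor call. Sp3 -/- HE2 held 0.752 and 0.340 FPKM, also above WT, with a difference of 1.24 (adjusted p 0.0561).

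Sycp3 differed from the other 7 genes in WT in that Flk1+ cells held as much as ESC, at 13.99 and 19.5 FPKM against 18.4 and 15.1 FPKM. Its level in HE1, HE2 and progenitors was at most 0.820 FPKM. In Sp1 ΔDBD/ΔDBD Flk1+ cells it fell to 2.004 and 1.17 FPKM, 0.0950 of the WT mean (-3.34, SE 0.781, adjusted p 0.0147). In Sp3 -/- Flk1+ cells it was at 10.6 and 13.0 FPKM, which is higher than in the Sp1 mutant by 2.85 (adjusted p 0.0308). ESC of the Sp1 mutant held 10.03 and 10.54 FPKM (-0.69, adjusted p 0.737), and the difference between the Flk1+ and the ESC contrast, -2.65, was not called (adjusted p 0.276), although it passed with a pseudocount of 1 (-2.13, adjusted p 0.000707).

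The Sycp3 call in Flk1+ cells did not hold without WT replicate 1 (-3.58, adjusted p 0.0627), without WT replicate 2 (-3.11, adjusted p 0.142) or without Sp1 ΔDBD/ΔDBD replicate 2 (-2.98, adjusted p 0.117). Harvest times of embryoid bodies depended on the line, and stage markers were read in the same samples. WT held 51.7 and 39.1 FPKM of Mesp1, against 39.8 and 22.0 in the Sp1 mutant and 101 and 146 in Sp3 -/- cells. Pou5f1 was at 27.4 and 19.6, 39.7 and 14.4, and 82.1 and 83.9 FPKM in the same order. Of 5 markers of Flk1+ cells, Kdr, T, Mesp1 and Etv2 overlapped between WT and the Sp1 mutant, whereas Pdgfra did not, at 22.8 and 21.2 against 45.9 and 31.6 FPKM. The endothelial genes Cdh5, at 1.62 and 2.09 against 5.84 and 14.8 FPKM, and Tek, at 1.22 and 1.29 against 4.14 and 8.94 FPKM, were also higher in both samples of the Sp1 mutant. The part of harvest time and stage in the Sycp3 result was not tested. The antisense neighbor Chpt1, which matches Sycp3 over 420 bases, was at 4.78 and 6.76 FPKM in WT and 7.48 and 5.16 FPKM in the Sp1 mutant.

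Mael and Dppa3 were confined to ESC in nearly all samples. Mael was at 5.77 and 6.79 FPKM in WT ESC, 5.66 and 4.002 in Sp1 ΔDBD/ΔDBD ESC (-0.39, adjusted p 0.689) and 5.04 and 5.20 in Sp3 -/- ESC. Later it was at the library minimum in every sample apart from Sp1 ΔDBD/ΔDBD Flk1+ replicate 1, with 0.269 FPKM, which passed when replicate 2 was left out (1.89, adjusted p 0.00133). Dppa3 was at 64.0 and 19.5 FPKM in WT ESC, 73.0 and 48.0 in the Sp1 mutant (0.74, adjusted p 0.343) and 40.7 and 43.9 in Sp3 -/- cells. Its WT replicates differ more than the genotypes, so the ESC samples cannot rank the lines, and without WT ESC replicate 1 the Sp1 mutant was called higher (adjusted p 0.0151). In Flk1+ cells Dppa3 did not exceed 0.0888 FPKM, and in HE1, HE2 and progenitors of all genotypes it was at the library minimum.

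**Figure D4:**
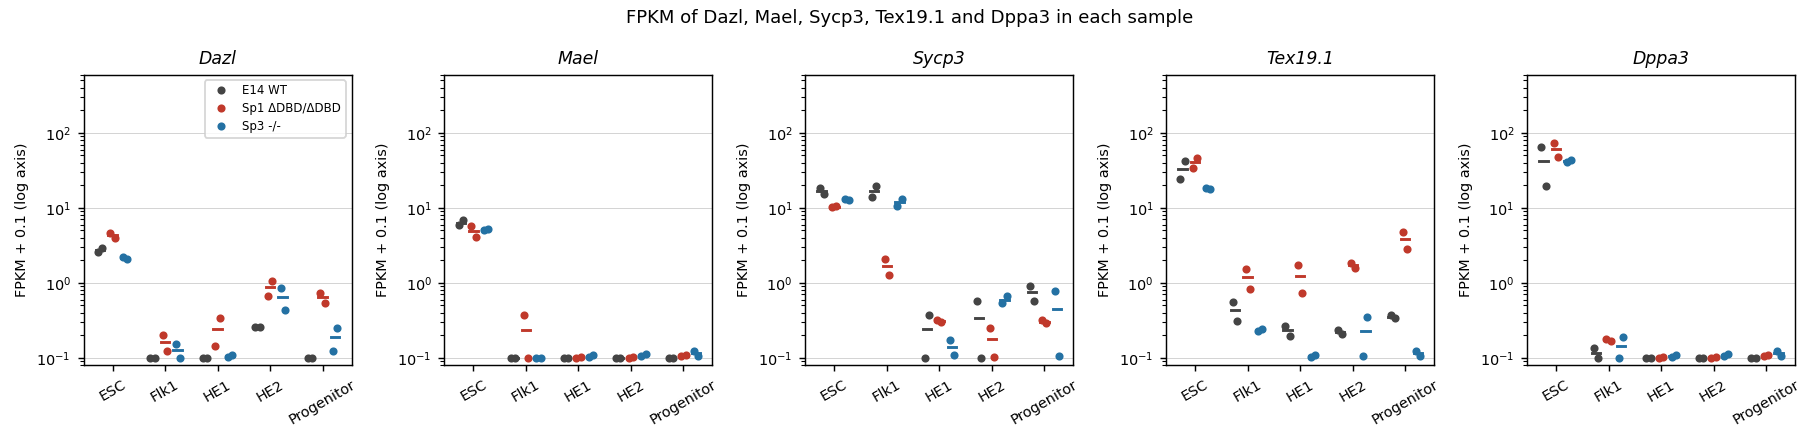
Levels of Dazl, Mael, Sycp3, Tex19.1 and Dppa3 in the 5 populations, as FPKM + 0.1 on a log axis, with points for the 2 samples of a group and a bar for their mean (WT grey, Sp1 ΔDBD/ΔDBD red, Sp3 -/- blue). Sycp3 in Flk1+ cells is lower in the Sp1 mutant, Tex19.1 is higher there in HE1, HE2 and progenitors, and Mael and Dppa3 lie near the axis floor after ESC in all genotypes.

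Over WT differentiation the 5 genes were lower than in ESC in 19 of 20 tests, beside 29.5% of all tests with a lower call. The exception was Sycp3 in Flk1+ cells (-0.01, adjusted p 1). The log2 differences were -3.39 to -4.76 for Dazl, -5.98 to -5.99 for Mael, -6.27 to -7.18 for Tex19.1 and -8.25 to -8.46 for Dppa3, and the highest adjusted p among the 19 calls was 5.82e-05. For genes that reach the library minimum these sizes are set by the pseudocount and are not folds of RNA. Dazl, Mael and Dppa3 passed the 1 FPKM filter through ESC samples alone, and Sycp3 through ESC and Flk1+ samples. A lower call after ESC was thus largely set in advance for them, and the 19 calls are a description.

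A direct comparison of the mutants, Sp3 -/- against Sp1 ΔDBD/ΔDBD, was made for the 5 genes that were not picked. It passed in 6 of 25 tests, beside 11.6% of all tests. Tex19.1 was lower in Sp3 -/- cells in all 4 later populations, by -2.26 in Flk1+ cells (adjusted p 0.00803), -3.43 in HE1 (0.000137), -3.16 in HE2 (0.000290) and -5.02 in progenitors (adjusted p 2.39e-06). Dazl was lower in progenitors (-1.84, adjusted p 0.00761), and Sycp3 higher in Flk1+ cells. The Tex19.1 call in Flk1+ cells was lost without Sp1 ΔDBD/ΔDBD replicate 1 or either Sp3 -/- sample (adjusted p 0.0719, 0.0729 and 0.0521), and the Dazl call without replicate 1 of either mutant (adjusted p 0.0643 and 0.123). Over all 8 genes, no Sp3 -/- difference was called as changing between ESC and a later population (0 of 32 limma tests at an adjusted p under 0.05, 4 at an unadjusted p under 0.05), where 1.38% of all such tests passed. With a pseudocount of 1 the 4 Usp26 contrasts passed.

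Likeness of the genes' patterns was described across the 15 group means, which share lines and cultures. Rhox5, Trap1a and Usp26 were picked for higher values in 5 of these groups, so their likeness to each other follows in part from that choice. Pearson's r on the log2 scale was 0.952 between Rhox5 and Trap1a, 0.905 between Trap1a and Usp26, 0.870 between Rhox5 and Usp26, 0.917 between Trap1a and Tex19.1, and 0.994 between Mael and Dppa3, but 0.158 between Rhox5 and Sycp3. Of 12016 genes, those most like Rhox5 were Trap1a, 4930453N24Rik (0.940) and Tex11 (0.931), an X-linked meiotic gene. Those most like Tex19.1 were Stk31 (0.981), a germ cell kinase-like gene, Tex11 (0.963) and Gm10451 (0.962). Tex11 was at 4.43 and 6.57 FPKM in WT ESC and 10.8 and 13.5 in Sp1 ΔDBD/ΔDBD ESC, and later at 1.33 and 1.03 FPKM in Flk1+ cells of that line. Usp26 was nearest to 4930453N24Rik (0.942), Kdm1b (0.926) and Dopey2 (0.923), Dazl to Psma8 (0.934), Kat6b (0.930) and Pax6 (0.917), and Sycp3 to Prss8 (0.972), Aldoc (0.964) and Rab11fip4 (0.956). Mael was nearest to Rpl10l (0.996), Sohlh2 (0.995) and Zp3 (0.994), and Dppa3 to Zp3 (0.999), Nlrp9b (0.998) and Nphs1 (0.998), genes that shared their restriction to ESC.

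Wider lists of the same kinds of gene, the 8 genes left out, showed changes in a minority of their members. As the background in ESC, Flk1+ cells, HE1, HE2 and progenitors, 2.8%, 2.92%, 5.69%, 4.7% and 3.75% of all genes were called higher in the Sp1 mutant, and 3.26%, 2.62%, 4.35%, 4.97% and 5.04% lower. For Sp3 -/- the shares were 5.4%, 6.69%, 6.02%, 6.97% and 3.88% higher and 5.91%, 5.94%, 4.87%, 6.84% and 4.77% lower. Among 24 meiosis genes, 1, 3, 3, 3 and 2 were higher in Sp1 ΔDBD/ΔDBD ESC, Flk1+ cells, HE1, HE2 and progenitors, and 0, 2, 1, 1 and 2 lower. Stag3, a meiotic cohesin subunit, was higher in all 4 later populations, with 22.2 and 23.3 FPKM against 5.75 and 6.58 in Flk1+ cells (1.87, adjusted p 0.0160), 10.95 and 20.4 against 0.76 and 1.88 in HE1 (3.53), and 16.4 and 26.7 against 2.67 and 4.64 in progenitors (2.54, adjusted p 0.0013). Syce2, of the central element of the synaptonemal complex, was lower in the same 4 populations, by -1.43, -0.70, -1.29 and -0.88. The list therefore held changes in both directions. The counts for Sp3 -/- cells were 0, 1, 3, 0 and 1 higher of the 24 and 1 lower, in ESC.

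Among 20 genes of the piRNA pathway, in which small RNAs silence transposons, 2, 3, 5, 4 and 6 were higher in the same order and 1 was lower, in Flk1+ cells. The median log2 difference of the list was 0.35, 0.39, 0.41, 0.56 and 0.19, beside 0, 0.02, 0.02, 0.04 and 0.05 over all genes. Pnldc1, which trims piRNA ends, was higher in HE1 (2.90), HE2 (3.04) and progenitors (2.27, adjusted p 0.0311), and Tdrkh, its partner, in progenitors (1.25, adjusted p 0.0233). None of the 20 genes was higher in Sp3 -/- cells of any population, and 1 was lower in ESC and 2 in HE2.

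Among 23 genes of primordial germ cells and oocytes, 0, 3, 5, 4 and 4 were higher and 1, 2, 1, 1 and 1 lower in Sp1 ΔDBD/ΔDBD cells. Dppa2 and Dppa4, partner proteins that activate germline and early embryonic genes, were both among them. Dppa2 was at 8.03 and 5.10 FPKM in HE1 against 0.56 and 0.24 in WT (3.78, adjusted p 0.0040), and Dppa4 at 39.7 and 25.7 against 6.55 and 4.95 (2.47, adjusted p 0.0036). Dppa4 also rose in HE2 (1.81) and progenitors (1.91), while Dnd1, an RNA-binding protein of germ cells, fell in ESC (-1.67) and Flk1+ cells (-1.57). In Sp3 -/- cells the most calls were in Flk1+ cells, with 6 higher and 1 lower, among them Dppa5a at 110 and 96.4 FPKM against 11.8 and 11.5 in WT (3.14, adjusted p 0.0101), in the samples whose Pou5f1 values are given above.

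Among 17 other X-linked reproductive genes, 1, 1, 2, 2 and 2 were higher and 2, 1, 1, 1 and 1 lower in Sp1 ΔDBD/ΔDBD cells. Rhox13, a gene of the same homeobox cluster as Rhox5, was higher in ESC at 5.13 and 3.80 FPKM against 1.04 and 0.58 (2.36, adjusted p 0.0021), and its mean in the later populations of the mutant was at most 0.110 FPKM. The cluster genes Rhox6 (-0.59, adjusted p 0.384), Rhox9 (-0.80, adjusted p 0.210) and Rhox10 (0.24, adjusted p 0.785) were not called in ESC of the mutant. None of the 17 was higher in Sp3 -/- cells of any population and 4 were lower in ESC, among them Xlr3a at 0.65 and 0.33 FPKM against 5.21 and 4.50 (-3.11, adjusted p 0.0028). Of 24 genes within 1 Mb of Rhox5, 2, 0, 1, 3 and 1 were called higher in the Sp1 mutant and 1 lower, in ESC, so most neighbors of Rhox5 were not called.

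**Figure D5:**
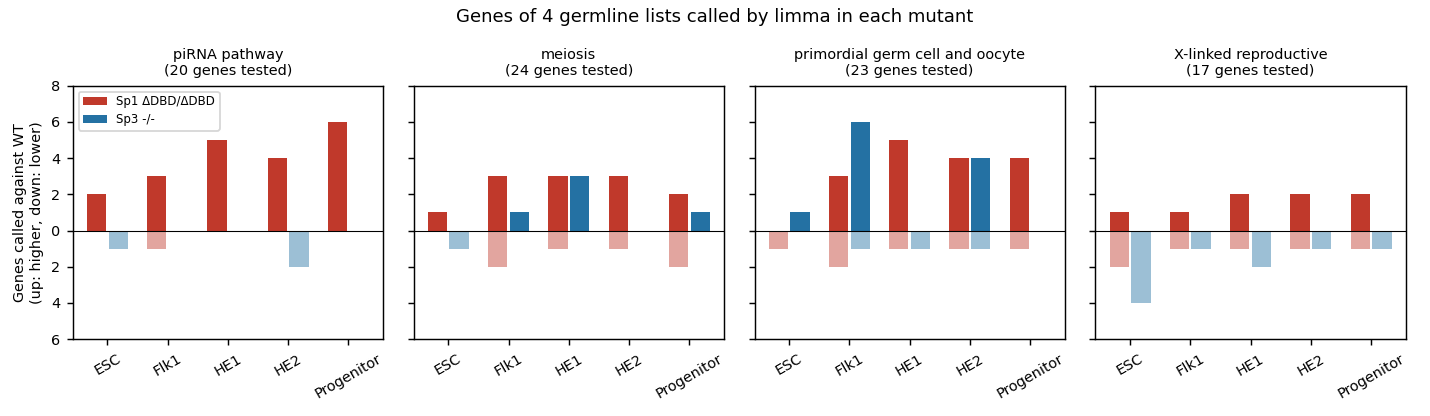
Number of genes called higher (solid) or lower (pale) than WT in each mutant and population, in the lists of meiosis (24 genes tested), piRNA pathway (20), primordial germ cell and oocyte (23) and X-linked reproductive genes (17). The piRNA list reaches 6 genes higher in Sp1 ΔDBD/ΔDBD progenitors and holds none higher in Sp3 -/- cells.

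A list of genes tied to the repression of germline genes was measured in the same samples. It also holds the DNA demethylation genes Tet1, Tet2 and Tet3. Of its 25 genes, 0, 2, 3, 4 and 1 were higher in Sp1 ΔDBD/ΔDBD ESC, Flk1+ cells, HE1, HE2 and progenitors, and 1 was lower, Rnf2 in ESC (-0.50). Smchd1, which acts in silencing of the X chromosome and of clustered genes, was higher in all 4 later populations, by 0.60, 0.61, 0.55 and 0.49, and E2f6 in Flk1+ cells (0.47), HE1 (0.64) and HE2 (0.52). The DNA methyltransferase genes Dnmt1, Dnmt3a and Dnmt3l, and Mga and Pcgf6, were not called in either mutant in any population, and Dnmt1 in HE1 of the Sp1 mutant had a difference of 0.61 (adjusted p 0.0688). In Sp3 -/- HE1, Dnmt3b (1.08) and Uhrf1 (0.65) were higher, and over the 5 populations 0, 1, 3, 1 and 0 of the 25 genes were called higher and 1, in Flk1+ cells, lower. Setdb1, a histone methyltransferase of silent chromatin, was higher in HE1 and HE2 of both mutants (0.40 and 0.55 in the Sp1 mutant, 0.34 and 0.39 in Sp3 -/- cells). These are RNA levels, and DNA methylation was not analysed here.

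Chromosomes differed in their overall level, which touches Tex19.1 and the X-linked genes. Genes of chromosome 11, where Tex19.1 lies, had a median log2 difference of -0.20, -0.12, -0.29, -0.31 and -0.34 in Sp1 ΔDBD/ΔDBD ESC, Flk1+ cells, HE1, HE2 and progenitors and of -0.16, -0.12, -0.22, -0.26 and -0.27 in Sp3 -/- cells. Tex19.1 was called higher in HE1, HE2 and progenitors of the Sp1 mutant, and the part of the chromosome 11 shift in its values was not tested. Genes of the X chromosome had medians of 0, 0.04, 0.16, 0.17 and 0.16 in Sp1 ΔDBD/ΔDBD cells and of -0.18, -0.12, 0.01, -0.07 and 0.06 in Sp3 -/- cells. The part of the X shift in the Sp1 ΔDBD/ΔDBD values of Rhox5, Trap1a and Usp26 was not tested. Of 514 X-linked genes, 9.34%, 7.2% and 6.42% were called higher in HE1, HE2 and progenitors of the Sp1 mutant, where 5.69%, 4.7% and 3.75% of all genes were. In Sp3 -/- ESC 68 of the 514 were called lower, where 859 of 14525 genes (5.91%) were. In Sp3 -/- Flk1+ cells 50 of the 514 were called lower, where 863 of 14525 genes (5.94%) were. The Trap1a difference in Sp3 -/- ESC was -0.21, beside the X median of -0.18. The part of the X shift in the Trap1a and Usp26 values in these cells was not tested.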

How the data were processed

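Total RNA libraries, stranded and depleted of ribosomal RNA, were sequenced from 30 samples. The authors aligned reads to mm10 with HISAT2 2.1.0 and deposited StringTie 1.3.3 FPKM values, quantile-normalized, for 14685 genes, filtered by them at 1 FPKM in at least 1 sample. Quantile normalization removes shifts shared by all genes. The number of reads is unknown, so only replicate spread gives precision.

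Groups came from the sample labels. Values were set to log2(FPKM + 0.1), and limma 3.58.1 (R 4.3.3) fitted 15 group means over all 30 samples with a trended prior, testing, two-sided, the 14525 genes whose deposited value was above 1 FPKM in at least 1 sample, with Benjamini-Hochberg adjustment within each comparison. The code was tested on simulated data. The 8 genes, the lists and the tests were chosen with earlier results of these data known. List genes were named by the largest called change among those with a group mean above 3 FPKM, likeness by Pearson's r. Alternatives were a pseudocount of 1, no filter, a 3 FPKM filter, a replicate block, each population fitted alone and each sample left out. Within a genotype, the blast culture samples that carry the same number shared deviations from their group means (r from 0.352 to 0.427 for WT, 0.408 to 0.612 for the Sp1 mutant and 0.0349 to 0.154 for Sp3 -/-), so these populations are not fully independent. Positions are from GENCODE on GRCm38, promoters from RefSeq on GRCm38.p6, and near-identical copies were sought with blastn 2.17.0. Figures were drawn with matplotlib 3.10.9 under Python 3.11.15.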

Additional observations from a re-analysis of the deposited data

Results flagged for a closer look

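The Sp1 ΔDBD/ΔDBD difference of Tex19.1 differed between ESC and a later population by a test of the difference itself. In HE2 it exceeded that in ESC by 2.64 (log2, limma adjusted p 0.0459) and in progenitors by 3.06 (limma adjusted p 0.0208). The HE2 result did not pass in 22 of 34 alternatives, with differences from 0.91 to 3.03 and adjusted p from 0.0196 to 0.195, the smallest difference being that with a pseudocount of 1 (adjusted p 0.177). The progenitor difference ranged from 1.57 to 3.45 and did not pass in 5 of 34, all of them with a sample left out: WT ESC replicate 2 (2.67, adjusted p 0.102), WT progenitor replicate 1 (3.13, adjusted p 0.0549) or 2 (2.99, adjusted p 0.0511), Sp1 ΔDBD/ΔDBD ESC replicate 1 (2.84, adjusted p 0.0866) and Sp1 ΔDBD/ΔDBD progenitor replicate 1 (2.69, adjusted p 0.0896). WT ESC replicates of Tex19.1 were 24.4 and 41.9 FPKM, a spread that enters both contrasts.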

How the results depend on the processing

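No difference changed sign under any alternative for a called value. With a pseudocount of 1, 4 Sp3 -/- contrasts between ESC and a later population passed, all of Usp26 (1.95, 1.95, 1.56 and 1.82), against 0 with 0.1, and 10 calls in all were gained and 3 lost. The other gains were Dazl in Sp1 ΔDBD/ΔDBD ESC (0.53, adjusted p 0.0183) and Sp3 -/- HE2 (0.40, adjusted p 0.0499), Tex19.1 in Sp3 -/- ESC (-0.81, adjusted p 0.0370), Sycp3 in the Sp1 contrast of Flk1+ cells with ESC (-2.13, adjusted p 0.000707), and Dazl and Tex19.1 between the mutants in ESC (-0.78 and -1.13). The losses were Usp26 in Sp3 -/- HE2 (-0.66, adjusted p 0.0571), Tex19.1 in Sp3 -/- progenitors (-0.30, adjusted p 0.521) and Tex19.1 in the Sp1 contrast of HE2 with ESC (0.91, adjusted p 0.177). With each population fitted alone, on 3 residual degrees of freedom, 2 tests passed for Sp1 ΔDBD/ΔDBD against WT, 1 for Sp3 -/- against WT and 3 for Sp3 -/- against Sp1 ΔDBD/ΔDBD, against 6, 5 and 6; those of the first 2 comparisons were Sycp3 in Flk1+ cells and Tex19.1 in progenitors for the Sp1 mutant and Usp26 in ESC for Sp3 -/-. Leaving out each sample in turn, with the remaining sample of that group assumed to vary like the others, gave 5 to 7 calls for Sp1 ΔDBD/ΔDBD against WT, 3 to 6 for Sp3 -/- against WT, 19 to 19 for WT populations against ESC, 0 to 3 and 0 to 1 for the Sp1 and Sp3 contrasts between ESC and later populations, and 4 to 7 between the mutants. No filter and the 3 FPKM filter changed no call of the 162 tests. Low levels limit Dazl, Mael and Dppa3 after ESC, where most samples were at or near the library minimum.

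A replicate block gave 6, 6, 19, 2, 0 and 6 calls in the same order and changed 1 of 162 calls, Trap1a in Sp3 -/- progenitors (-1.83, adjusted p 0.0352). The labels do not say that a number marks a shared batch, and each population has only 2 pairs, so the numbers were not used as pairs. Deviations of same-numbered samples correlated at 0.222 to 0.455 between WT and Sp1 ΔDBD/ΔDBD, a hint from the data of a shared replicate effect, and at 0.00473 to 0.193 between WT and Sp3 -/-. The block changed no call of the Sp1 comparison.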

Other observations

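Pluripotency, trophoblast and extraembryonic lists were measured in the same cells. Among 21 pluripotency genes, which share members such as Dppa2 and Dppa4 with the germ cell list, 0, 1, 2, 2 and 1 were higher in Sp1 ΔDBD/ΔDBD ESC, Flk1+ cells, HE1, HE2 and progenitors and 0, 3, 1, 1 and 1 lower. Klf4 was lower in all 4 later populations of that line (log2 differences of -1.10, -1.43, -1.23 and -1.68), and in Flk1+ cells and HE2 of Sp3 -/- (-0.99 and -1.18). Among 12 trophoblast genes 1 was higher, in ESC, and 1 lower in each of Flk1+ cells and HE1 of the Sp1 mutant. Among 10 genes of extraembryonic endoderm none was higher in the Sp1 mutant and 1 was lower, in progenitors. In Sp3 -/- cells 1, 4, 0, 3 and 1 of the pluripotency genes were higher and 0, 2, 0, 1 and 0 lower, the trophoblast genes had 2 higher and 2 lower in Flk1+ cells and 1 lower in each of ESC and HE2, and the endoderm genes had 1 higher in each of ESC and progenitors and 1 lower in ESC.

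The X-linked gene Plac1, known from placenta, was lower in Flk1+ cells of both mutants (log2 differences of -2.66 in Sp1 ΔDBD/ΔDBD and -2.78 in Sp3 -/-), a pair of comparisons that share their WT samples.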
